A study of Mus musculus with 12 samples.

Results

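Retinas of mice injected with gold nanoparticles of 20 nm were compared with retinas of mice injected with silicate nanoparticles of the same size, 7 days after the injection. The arrays of these groups were found by their titles, 3 for gold 20 nm and 3 for silicate 20 nm, which makes 6 of the 12 arrays of the series. All mice were male C57BL/6 animals aged 5 weeks, and each group had 12 of them. Particles, or phosphate-buffered saline (PBS) for the control mice, went into the vitreous of the right eye. The retinas of 4 mice were pooled into a tube, so a group is 3 tubes and the variation between single animals was not measured. The remaining 6 arrays hold gold and silicate particles of 100 nm and serve here only for the estimate of the spread and for the comparison between sizes. The sample annotation writes the sizes with the unit nM, while the growth protocol gives diameters in nm, the reading used here.

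Each two-colour array set a particle tube, labelled with the dye Cy5, against PBS retina, labelled with Cy3. The value of a gene on an array is the log2 ratio of particle over PBS, and the difference of the gold and silicate ratios on the same slide is called the difference here. A negative difference means that the gene was lower in the gold tube. There were 3 slides, numbered as the replicates, and each carried 1 array of every group. The gold 20 nm array always lay at the same position of the slide and the silicate 20 nm array at another, so position and group cannot be told apart. No dyes were exchanged.

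The neural retina consists of photoreceptors, interneurons, ganglion cells and Müller glia, and it holds resident microglia. An injection through the wall of the eye can recruit blood leukocytes and can set off gliosis, the injury response of Müller glia and astrocytes, in which Gfap rises. The lens, the ciliary body, the ocular surface and the eye muscles lie close to the retina but do not belong to it. Their defining transcripts, such as those of the lens crystallins or the epithelial keratins, were therefore followed beside those of the retina. The value of a pool reflects both the number of cells of a type and the RNA per cell, and these cannot be told apart.

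The tubes contained retina by their markers. The rod gene Sag, which encodes the arrestin of the visual pigment, had normalized log2 levels of 17.03, 16.98 and 16.88 in the gold tubes of slides 1, 2 and 3, against 16.55, 16.19 and 15.68 in the silicate tubes. Between 21747 and 22712 of the 23237 genes tested were well above background in Cy5 on the 6 arrays. The number of arrays limits the precision. The PBS levels differed strongly between slides for genes of blood cells: the neutrophil gene S100a8 was at 15.79 on the gold array of slide 1 and at 6.41 and 6.53 on those of slides 2 and 3. Whether the 2 arrays of a slide received RNA from the same PBS tube is not stated in the labels. Where the PBS levels of a described gene lay over 2-fold apart on a slide, both are given for that slide.

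No gene passed the test of gold against silicate over the 3 slides. With limma and the slide as a block, 0 of 23237 genes (0%) were higher and 0 (0%) lower in gold at an adjusted p under 0.05, and the smallest adjusted p was 0.193. Without slide 3, 3 genes passed, all lower in gold. At an unadjusted p under 0.05, 1126 genes (4.85%) were higher and 1100 (4.73%) lower in gold. This split moved with the scaling: the processed signals of the scanner software gave 1690 higher and 636 lower, median centring in place of loess 717 and 1228, and Cy5 levels alone 1605 and 898. All differences below are therefore measurements on 3 pairs of tubes, none of which passed the adjustment over all 3 slides. The median difference over all genes was -0.03, -0.00 and 0.01 on slides 1, 2 and 3.

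Differences within single slides were large, and most of the large ones were negative. By any size, 43%, 48.9% and 50.9% of genes were higher in gold on slides 1, 2 and 3, and 57%, 51.1% and 49.1% were lower. On slide 1, 12 genes (0.0517%) were over 2-fold higher and 357 (1.54%) over 2-fold lower in gold. On slide 2, 89 genes (0.383%) were over 2-fold higher and 243 (1.05%) lower, and on slide 3, 127 (0.547%) were higher and 1855 (7.99%) lower. The same count was made between the PBS channels of those arrays, from their normalized log2 levels. Since the arrays of a slide may share a PBS tube, this count does not measure the spread between pools. It gave 6 genes (0.0258%) higher and 100 (0.43%) lower on the gold array of slide 1, 10 (0.0431%) and 14 (0.0603%) on slide 2, and 17 (0.0732%) and 72 (0.31%) on slide 3. The genes over 2-fold lower in gold lay at different places relative to PBS on the slides. On slide 3 silicate was over 2-fold above PBS for 1648 of these 1855 genes (88.8%), and gold was over 2-fold below PBS for 61 (3.29%). On slide 1 silicate was over 2-fold above PBS for 192 of 357 (53.8%), and gold over 2-fold below PBS for 140 (39.2%). Silicate too was over 2-fold below PBS for 67 of these 357 genes (18.8%). On slide 2 silicate was over 2-fold above PBS for 132 of 243 (54.3%), and gold over 2-fold below PBS for 25 (10.3%).

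**Figure D1:**
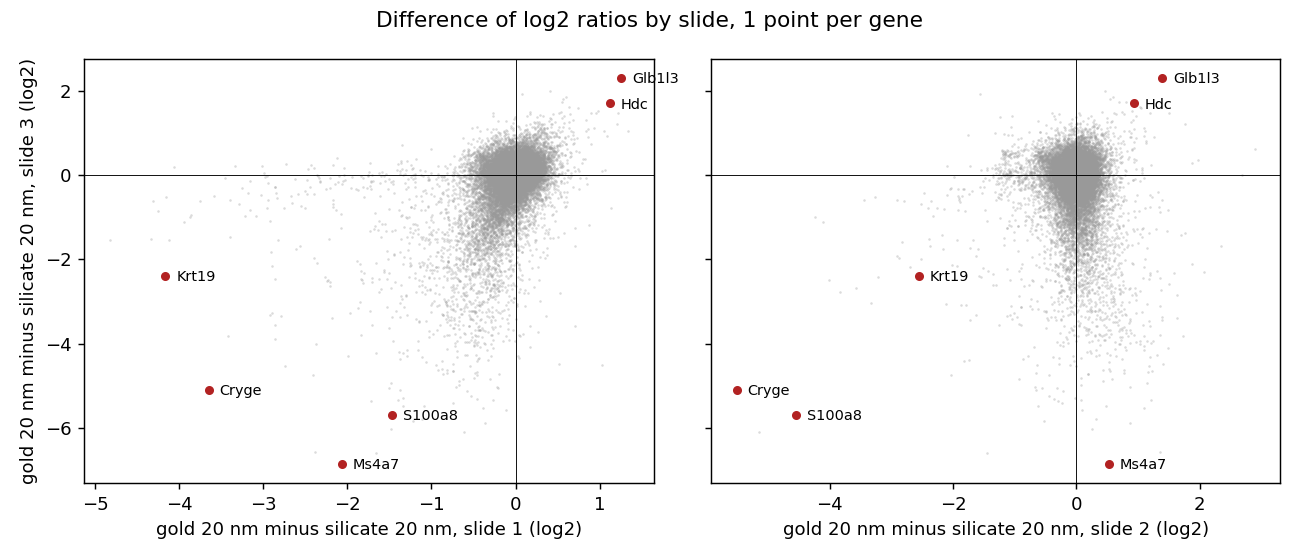
Difference of gold 20 nm minus silicate 20 nm on slide 3 (vertical axis, log2) against slide 1 (left) and slide 2 (right), with 1 point per gene and 6 named genes in red. Cryge, S100a8 and Krt19 lie below 0 on all slides, Hdc and Glb1l3 lie above 0 on all slides, and Ms4a7 lies at -6.85 on slide 3 but at 0.52 on slide 2.

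The slides shared part of these genes. Over all genes, the differences correlated at 0.28 between slides 1 and 2, at 0.43 between slides 1 and 3 and at -0.05 between slides 2 and 3. Of the genes over 2-fold lower in gold, 66 were common to slides 1 and 2, which is 18.5% of those of slide 1 and 27.2% of those of slide 2. Slides 1 and 3 shared 195, which is 54.6% of those of slide 1, beside 7.99% of all genes over 2-fold lower on slide 3, and 10.5% of those of slide 3. Slides 2 and 3 shared 64, which is 26.3% of those of slide 2 and 3.45% of those of slide 3. Of all genes, 1.54%, 1.05% and 7.99% were over 2-fold lower in gold on slides 1, 2 and 3. Over all 3 slides, 3483 of the 23213 genes with all values (15%) were higher in gold each time and 3996 (17.2%) lower each time. The 3 gold ratios all exceeded the 3 silicate ratios for 965 genes (4.16%) and all lay under them for 839 (3.61%). Over 2-fold on every slide, 4 genes (0.0172%) were higher and 24 (0.103%) lower in gold.

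Most genes of the lens were lower in gold tubes, and Cryge and Crygf had the largest mean differences of all genes tested. Lens fibre cells are filled with crystallins, the soluble proteins that give the lens its refraction, and the gamma crystallins are made mainly in fibre cells. Cryge had log2 ratios over PBS of -3.41, -3.80 and -2.75 in the gold tubes of slides 1, 2 and 3, against 0.24, 1.71 and 2.34 in the silicate tubes. Every gold tube thus lay below PBS and every silicate tube above it. The mean difference was -4.75 with a standard error (SE) of 0.70 and an adjusted p of 0.197. Crygf gave -3.22, -3.82 and -2.43 in gold tubes, against 0.17, 1.65 and 2.61 in silicate tubes, with a mean difference of -4.63 (SE 0.65, adjusted p = 0.197). The probes of such near-identical genes may bind each other's transcripts, so Cryge and Crygf are not separate evidence.

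The other gamma crystallins differed in the same direction with smaller sizes. Cryga stood at -1.78, -2.63 and -1.83 in gold tubes, against -0.30, 0.94 and 0.85 in silicate tubes. For Crygc the ratios were -1.97, -2.65 and -2.0 in gold tubes, against -0.35, 1.18 and 0.76 in silicate tubes, and for Crygd they were -1.36, -2.35 and -1.63 in gold tubes, against -0.09, 0.87 and 0.79 in silicate tubes. Crygb gave -1.50, -2.14 and -1.64 in gold tubes, against -0.56, 0.76 and 0.28 in silicate tubes. Gold and silicate tubes did not overlap for any of these genes. Among all genes, 3.61% had every gold ratio under every silicate ratio. The PBS levels of the gamma crystallins on the 2 arrays of a slide were alike. For Cryge they were, for example, 11.31 on the gold array and 11.18 on the silicate array of slide 1. Of 22 lens genes tested, 14 were lower in gold on all slides and none was higher on all, beside 17.2% and 15% of all genes. On slide 1, 7 of the 22 were higher in gold, beside 43% of all genes. Over 2-fold lower on every slide were 5 of the 22, beside 0.103% of all genes. These 5 were the gamma crystallins Cryga, Crygc, Crygd, Cryge and Crygf, members of 1 family with similar sequences, so they are not 5 separate results. At an unadjusted p under 0.05 with limma, 6 were lower, beside 4.73% of all genes. The list's median difference was -0.25, -1.39 and -2.56 on slides 1, 2 and 3, against -0.03, -0.00 and 0.01 for all genes.

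**Figure D2:**
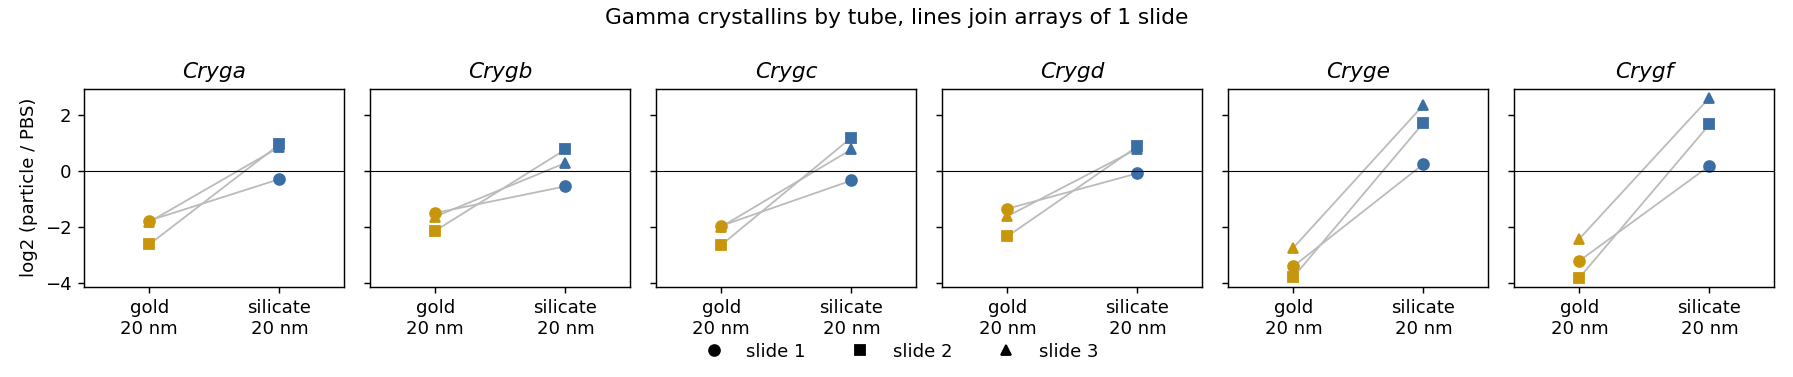
Log2 ratio of particle over PBS for 6 gamma crystallins, gold 20 nm at the left and silicate 20 nm at the right of each panel, with symbols for slides and lines joining the arrays of 1 slide. All gold tubes lie below 0 and below every silicate tube, and the gap is widest for Cryge and Crygf.

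Because these 6 genes, all on chromosome 1, differed together, the stretch of their promoters around the TATA-like letters is shown. The sequences are from RefSeq on GRCm38.p6, 5′ to 3′ on the strand of the gene. Each runs from 60 bases before the letters TATATA to 10 bases after them; where TATATA matched at overlapping positions, the first was used. Capitals mark TATATA and CTTTTGTG, which were chosen after the sequences and values were seen.
Cryga, chr1:65103387-65103462, minus strand: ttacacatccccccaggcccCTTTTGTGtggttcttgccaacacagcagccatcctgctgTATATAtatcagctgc
Crygb, chr1:65082305-65082380, minus strand: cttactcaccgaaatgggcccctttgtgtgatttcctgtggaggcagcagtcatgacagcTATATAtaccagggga
Crygc, chr1:65073546-65073621, minus strand: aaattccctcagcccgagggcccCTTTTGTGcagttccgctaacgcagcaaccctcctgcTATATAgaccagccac
Crygd, chr1:65063455-65063530, minus strand: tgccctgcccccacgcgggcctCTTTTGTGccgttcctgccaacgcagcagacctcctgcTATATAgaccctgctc
Cryge, chr1:65051166-65051241, minus strand: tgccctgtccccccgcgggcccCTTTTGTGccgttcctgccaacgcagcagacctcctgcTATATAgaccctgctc
Crygf, chr1:65926430-65926505, plus strand: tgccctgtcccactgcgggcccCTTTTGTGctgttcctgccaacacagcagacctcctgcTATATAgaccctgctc
The stretches were placed on TATATA, so each holds it by construction. CTTTTGTG was picked from these sequences and stood in 5 of the 6, all but that of Crygb. Of 32851 RefSeq promoters of 300 bases, 5.67% held TATATA and 1.37% held CTTTTGTG on either strand, and nothing is read from the comparison with motifs chosen in this way. The motifs do not overlap in these stretches. Cryge and Crygf matched at 72 of the 76 positions and Cryge and Crygd at 73, while the difference of Crygd was smaller (mean -2.30) than those of Cryge and Crygf.

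Genes of the ocular surface epithelium and of muscle were lower in gold tubes, with different slides leading. Keratins form the filaments of epithelial cells, and Krt19 belongs to simple and mucosal epithelia. Krt19 had log2 ratios of 0.67, -0.21 and -0.61 in gold tubes, against 4.83, 2.34 and 1.78 in silicate tubes, so that only the silicate tubes stood far above PBS. Its mean difference was -3.04 (SE 0.66, adjusted p = 0.278). Krt13, a keratin of stratified mucosal epithelium, gave 0.57, 0.04 and -1.82 in gold tubes, against 3.86, 2.56 and -1.14 in silicate tubes. Only 2 of the 3 gold tubes were well above background for Krt13. The basal keratin Krt14 gave -0.03, -0.10 and -0.19 in gold tubes, against 2.83, 2.36 and 0.24 in silicate tubes. In PBS of slide 1, Krt13 was at 6.36 on the gold array and 7.51 on the silicate array, and Krt14 at 7.17 on the gold array and 8.16 on the silicate array. On slide 3 the difference was small for Krt14, at -0.44, and without that slide Krt14 was among the genes that passed (mean -2.66, adjusted p = 0.0487). Of 12 epithelial genes tested, 10 were lower in gold on every slide (17.2% of all genes), and 8 were lower at an unadjusted p under 0.05 (4.73% of all genes). The list's medians were -2.53, -1.10 and -0.52 on slides 1, 2 and 3.

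For some keratins the PBS channels moved with the particle tubes. Krt15 had a PBS level of 6.83 on the gold array and of 10.77 on the silicate array of slide 1, and of 6.99 on the gold array and 8.14 on the silicate array of slide 2, while Krt5 had 7.71 on the gold array and 10.99 on the silicate array of slide 1. The Cy5 level of Krt15 on slide 1 was 8.53 in the gold tube and 14.64 in the silicate tube, a wider gap than its ratio difference of -2.17. The part of these PBS values in the result was not tested. Other genes of slide 1 with the lowest differences are also known from epithelia. They were Wfdc18 at -4.82, the membrane protein gene Emp1 at -4.34, the mucin Muc4 at -4.31 and the epidermal lipoxygenase Alox12e at -4.25. The PBS level of Alox12e on slide 1 was 6.57 on the gold array and 7.69 on the silicate array. Cstdc5, a cystatin family gene with near-identical copies, differed by -3.87, -4.24 and -1.01. Over all slides, Emp1 ranged from -4.34 to -1.51 and Muc4 from -4.31 to -0.63.

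Skeletal muscle transcripts separated the groups on slides 2 and 3 more than on slide 1. Myl1, a myosin light chain of fast fibres, had log2 ratios of 0.44, 0.29 and 0.10 in gold tubes, against 0.64, 4.29 and 2.59 in silicate tubes. Tnni2, the fast troponin I, gave -1.68, 0.28 and -0.46 in gold tubes, against -0.68, 3.61 and 2.58 in silicate tubes. The myosin heavy chain gene Myh1 was not well above background in any of the 3 gold tubes. Its Cy5 level, averaged over the slides, was at least 3.15-fold lower in gold. This bound compares Cy5 levels alone, while the tested difference of the ratios to PBS had a mean of -1.53 (SE 0.48, adjusted p = 0.437). For the bound the gold level was taken, on each array, as the dimmest probe that was still well above background, or as the gene's own level if that was brighter. Such a gene may have been kept for testing through its silicate arrays alone, so the bound is only a description. Of 12 muscle genes tested, 8 were lower in gold on all slides (17.2% of all genes), and the list's medians were -0.27, -2.18 and -1.51. Of the connective tissue collagens, Col1a1 gave differences of -2.27, -1.54 and -2.43, and Col3a1 gave -2.90, -1.94 and -2.16. Their SE over all 12 arrays were 1.14 for Col1a1 and 1.12 for Col3a1, with adjusted p-values of 0.567 and 0.547. Of 19 extracellular matrix genes tested, 9 were lower in gold on all slides and 1 was higher, beside 17.2% and 15% of all genes.

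Neutrophil genes were lower in gold, with 10 of the 10 tested lower on slide 1, 9 on slide 2 and 8 on slide 3, beside 57%, 51.1% and 49.1% of all genes. On slide 1 the PBS level of S100a8 and S100a9 was above that of both particle tubes. S100a8 and S100a9 encode the subunits of calprotectin, the most abundant cytosolic protein of neutrophils. S100a8 had log2 ratios of -8.29, 0.13 and 0.03 in gold tubes, against -6.82, 4.68 and 5.71 in silicate tubes. Gold tubes thus were at the PBS level on slides 2 and 3, where the silicate tubes were far above it. Gold and PBS were both close to the background of the array there. The gold Cy5 levels of S100a8 were 6.54 and 6.56, beside PBS levels of 6.41 and 6.53 on the gold arrays. Only 2 of the 3 gold tubes were well above background for S100a8. S100a9 gave -6.17, 0.10 and -1.58 in gold tubes, against -5.56, 5.25 and 4.50 in silicate tubes. The mean differences were -3.90 for S100a8 (SE 1.30, adjusted p = 0.461) and -3.95 for S100a9 (SE 1.40, adjusted p = 0.475). The granule gene Ltf was not well above background in any gold tube. Its Cy5 level, averaged over the slides, was at least 2.25-fold lower in gold. On slide 3 alone its Cy5 levels were close, at 6.63 in the gold tube and 6.88 in the silicate tube. The tested difference of its ratios had a mean of -1.23 (SE 0.85, adjusted p = 0.6). Of the neutrophil genes, 7 were lower in gold on all slides (17.2% of all genes), with list medians of -0.33, -0.68 and -1.30.

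Lcn2, a siderophore-binding protein of neutrophils and reactive glia, did not share this pattern. Its differences were -0.49, 0.10 and -2.96, and the PBS level on slide 3 was 9.88 on the gold array and 14.56 on the silicate array. In Cy5 the slide 3 levels were 9.97 in the gold tube and 17.61 in the silicate tube.

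**Figure D3:**
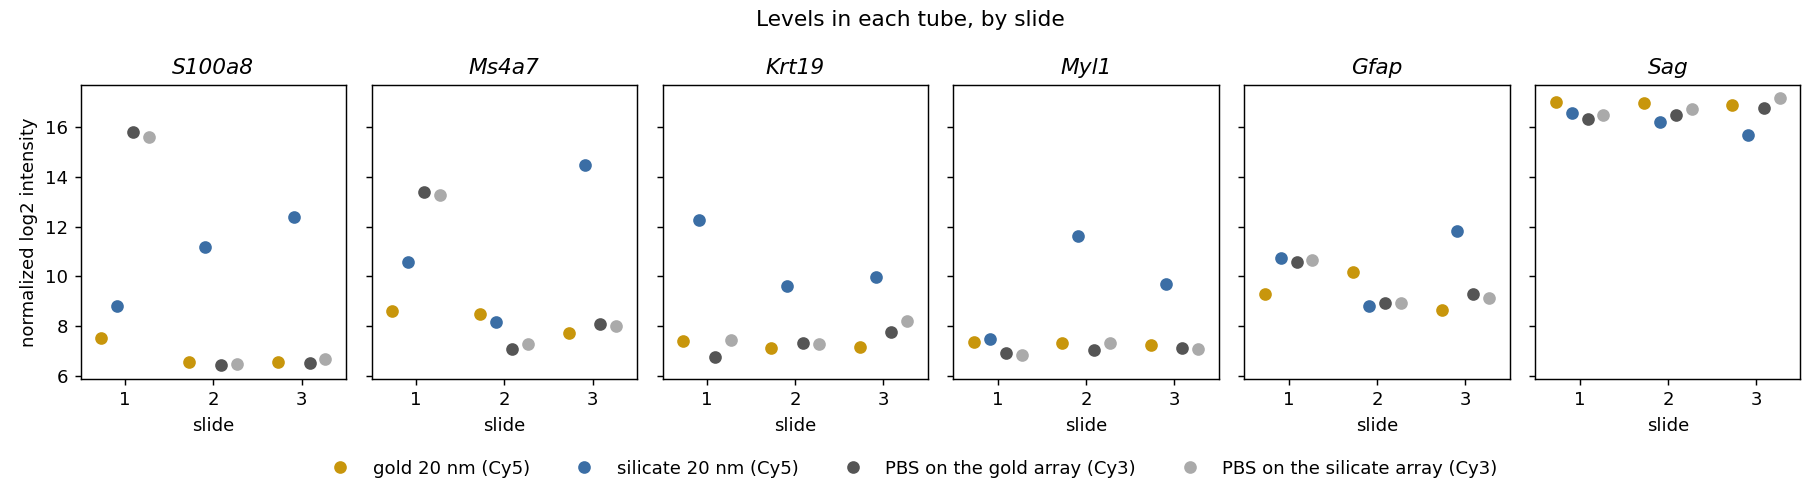
Normalized log2 intensity of 6 genes by slide for the gold 20 nm tube, the silicate 20 nm tube and the PBS channel on either array. S100a8 and Ms4a7 have high PBS levels on slide 1, the silicate tube of slide 3 stands out for Ms4a7 and Gfap, and Sag stays between 15.68 and 17.16 throughout.

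Most macrophage, class I antigen presentation and interferon genes differed in opposite directions on slides 2 and 3. Ms4a7, a membrane protein gene of macrophages, had log2 ratios of -4.80, 1.41 and -0.34 in gold tubes, against -2.73, 0.89 and 6.51 in silicate tubes. The protease gene Ctss gave -3.34, 1.70 and -0.28 in gold tubes, against -1.94, 0.49 and 5.06 in silicate tubes, and the complement gene C1qa gave -1.69, 1.13 and -0.74 in gold tubes, against -1.0, -0.01 and 3.21 in silicate tubes. In each case the silicate tube of slide 3 was the highest of the 6 and the gold tube exceeded the silicate tube on slide 2. P2ry12, which marks resident microglia rather than recruited macrophages, differed by 0.36, 0.60 and -0.53. Over the 21 macrophage and microglia genes tested, the median difference was -0.70, 0.62 and -3.74 on slides 1, 2 and 3, and 1 gene was lower in gold on all slides (17.2% of all genes). With the spread this large, adjusted p-values were 0.578 for Ms4a7, 0.61 for Ctss and 0.634 for C1qa.

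The class I list of 12 genes had medians of -0.43, 0.55 and -3.38, and all 12 were over 2-fold lower in gold on slide 3 (7.99% of all genes). The class II genes did not share the higher values of slide 2: for the 9 tested the medians were -0.27, -0.06 and -3.75, and 5 of them were lower in gold on all slides (17.2% of all genes). Cd74, the invariant chain of class II, differed by -0.63, -0.93 and -4.84. Its PBS level on slide 3 was 9.55 on the gold array and 10.99 on the silicate array. H2-Aa, which encodes a class II chain, gave -2.40, 0.82 and -0.49 in gold tubes, against -2.13, 0.75 and 4.85 in silicate tubes. The 20 genes of the type I interferon response had medians of -0.27, 0.60 and -2.30, with 20 of 20 over 2-fold lower in gold on slide 3 (7.99% of all genes) and 19 of 20 higher on slide 2 (48.9% of all genes). The 5 lowest differences of slide 3 were those of Ms4a7 at -6.85, the lysozyme Lyz1 at -6.56, S100a9 at -6.09, the complement component C3 at -6.01 and the chemokine Ccl5 at -5.87. S100a9 was lower on slide 2 as well, at -5.14, while Ms4a7, Lyz1, C3 and Ccl5 were higher there. Lyz1 has a near-identical copy, Lyz2, with which its probe may share signal. The 12 complement genes tested had medians of -0.51, 0.50 and -2.24, and the 14 lysosome genes had -0.67, 0.24 and -2.18. In PBS of slide 3, C3 was at 9.74 on the gold array and 10.90 on the silicate array, and Ccl5 at 9.10 on the gold array and 10.34 on the silicate array.

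**Figure D4:**
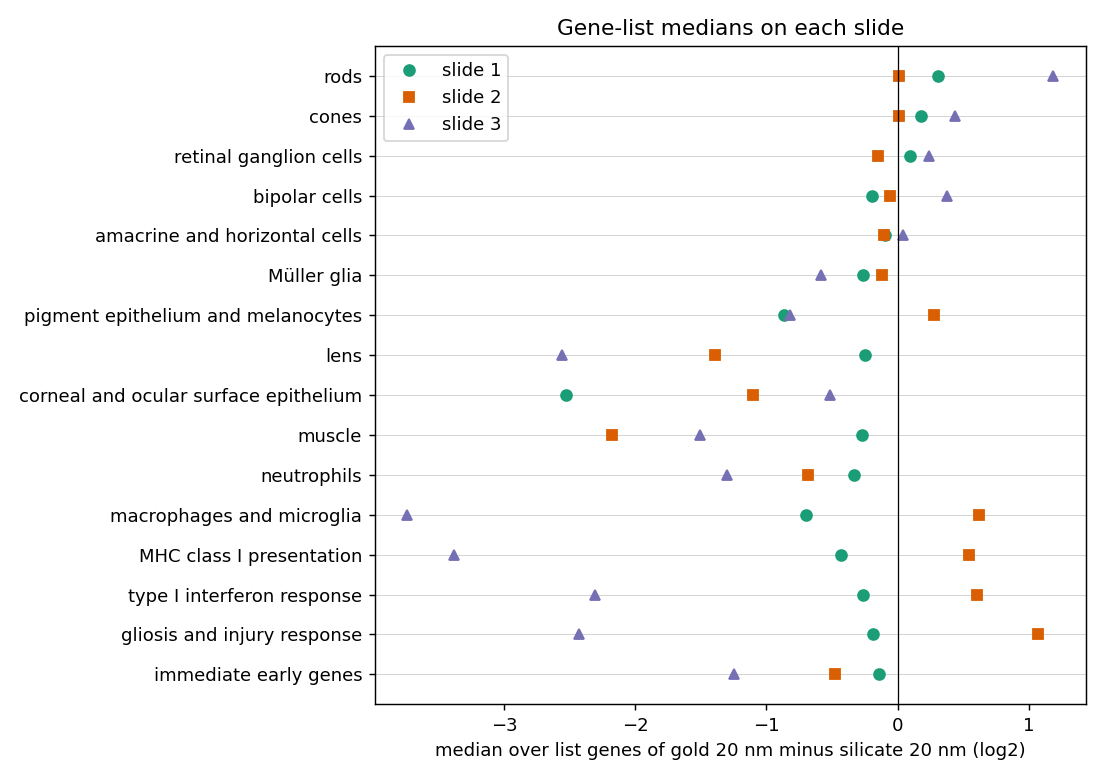
Median difference of gold 20 nm minus silicate 20 nm (log2) over the genes of 16 lists, with 1 symbol per slide. Rods lie at or above 0 on all slides, lens, epithelium, muscle, neutrophils and immediate early genes lie below 0 on all slides, and the macrophage, class I, interferon and gliosis lists lie above 0 on slide 2 and below 0 on slides 1 and 3.

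The gliosis genes also differed in opposite directions on slides 2 and 3. Gfap, the intermediate filament of astrocytes and reactive Müller glia, had log2 ratios of -1.27, 1.26 and -0.66 in gold tubes, against 0.10, -0.13 and 2.71 in silicate tubes. Serpina3n, a protease inhibitor of reactive astrocytes, differed by -2.75, 1.17 and -4.52, and its PBS level on slide 3 was 8.47 on the gold array and 10.21 on the silicate array. Edn2, an endothelin released by injured photoreceptors, differed by 0.70, 2.34 and -1.68. Among genes well above background on both arrays of slide 2, the highest differences were those of Edn2, of the smooth muscle actin Acta2 at 2.07, of the complement gene C2 at 1.87 and of Prb1, a proline-rich protein gene of saliva, at 1.87. All 15 gliosis genes tested were higher in gold on slide 2 (48.9% of all genes) and all 15 were lower on slide 3 (49.1% of all genes). The metallothioneins Mt1 and Mt2, which bind zinc and copper, differed by -0.39, 0.47 and -1.97 and by -0.65, 0.68 and -3.17. Hmox1, which degrades heme, was lower in gold on all slides, at -0.25, -1.93 and -0.84 (adjusted p = 0.583).

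The list of Müller glia genes had medians of -0.27, -0.12 and -0.58, against -0.19, 1.07 and -2.43 for the gliosis list. Its members were not alike. Slc1a3, the glial glutamate transporter, had log2 ratios of -0.76, -0.01 and 0.32 in gold tubes, against -0.20, 0.30 and 0.91 in silicate tubes, with a mean difference of -0.48 (SE 0.12, adjusted p = 0.375). The transcription factor gene Sox9 differed by -0.33, -0.15 and -1.70. Crym, which encodes mu-crystallin, a thyroid hormone binding protein, differed by -0.62, 0.78 and -2.68, and the intermediate filament gene Vim by -0.42, 0.75 and -2.35, so both were higher in gold on slide 2 and lower on slides 1 and 3. Of 13 Müller genes tested, 7 were lower and 1 was higher in gold on all slides, beside 17.2% and 15% of all genes. Pigment genes varied by slide: Tyrp1 and Dct, enzymes of melanin synthesis, differed by -1.73, 1.46 and -1.32 and by -1.68, 1.30 and -1.28.

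Rod genes were mostly higher in gold on slides 1 and 3, with 17 and 21 of 21, beside 43% and 50.9% of all genes. On slide 2 only 13 of the 21 were higher, beside 48.9% of all genes. Sag had log2 ratios of 0.70, 0.49 and 0.13 in gold tubes, against 0.06, -0.54 and -1.48 in silicate tubes, and the mean difference was 1.09 (SE 0.28, adjusted p = 0.382). Guca1a, which activates the guanylate cyclase of photoreceptors, gave 0.76, 0.18 and 0.28 in gold tubes, against -0.14, -0.43 and -1.19 in silicate tubes. Pde6b, a subunit of the rod phosphodiesterase, gave 0.23, -0.08 and -0.20 in gold tubes, against 0.01, -0.57 and -1.46 in silicate tubes. For these 3 genes the gold tube was higher on every slide, though the lowest gold value of Pde6b lay under the highest silicate value. Of 21 rod genes, 12 were higher in gold on all slides (15% of all genes) and 6 at an unadjusted p under 0.05 (4.85% of all genes). The list's medians were 0.31, 0.01 and 1.19, so the slide that had the silicate tube with the highest macrophage levels also had the largest rod difference. The part of the macrophage genes in the rod result was not tested.

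On slide 3 the list medians of the other retinal neurons lay closer to 0 than that of the rods. The medians ranged over the slides from 0.01 to 0.44 for 12 cone genes, from -0.15 to 0.24 for 15 ganglion cell genes, from -0.20 to 0.37 for 13 bipolar cell genes and from -0.11 to 0.04 for 14 amacrine and horizontal cell genes. Of the cone genes, 5 were higher and 2 lower in gold on all slides, beside 15% and 17.2% of all genes. Opn1sw, the cone opsin for short wavelengths, had log2 ratios of 0.61, 0.93 and -0.00 in gold tubes, against -0.09, 0.21 and -0.77 in silicate tubes. Its difference was of like size on all slides, with a mean of 0.73 (SE 0.13, adjusted p = 0.221).

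The genes with the smallest p among those higher in gold had silicate tubes below PBS on every slide, except that Cd59a was at the PBS level on slide 1. Hdc, the enzyme that makes histamine from histidine, had log2 ratios of -0.19, 0.12 and 0.04 in gold tubes, against -1.31, -0.81 and -1.65 in silicate tubes. Gold tubes were near PBS and silicate tubes lower, without overlap, and the mean difference was 1.25 (SE 0.14, adjusted p = 0.193). Ip6k3, an inositol hexakisphosphate kinase, gave 0.73, 0.94 and -0.06 in gold tubes, against -0.47, -0.83 and -1.26 in silicate tubes (mean difference 1.39, SE 0.17, adjusted p = 0.193). Cd59a, an inhibitor of the complement membrane attack complex, gave 0.43, 0.17 and -0.12 in gold tubes, against 0.00, -0.54 and -0.75 in silicate tubes. Tmem116 differed by 0.59, 0.57 and 0.47. Cd207, the lectin langerin of Langerhans cells, differed by 0.57, 0.93 and 0.78 at Cy5 levels between 6.70 and 7.71, close to the background of the array. The PBS levels of Hdc were 12.81, 12.66 and 12.86 on the gold arrays, against 12.74, 12.63 and 12.78 on the silicate arrays.

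**Figure D5:**
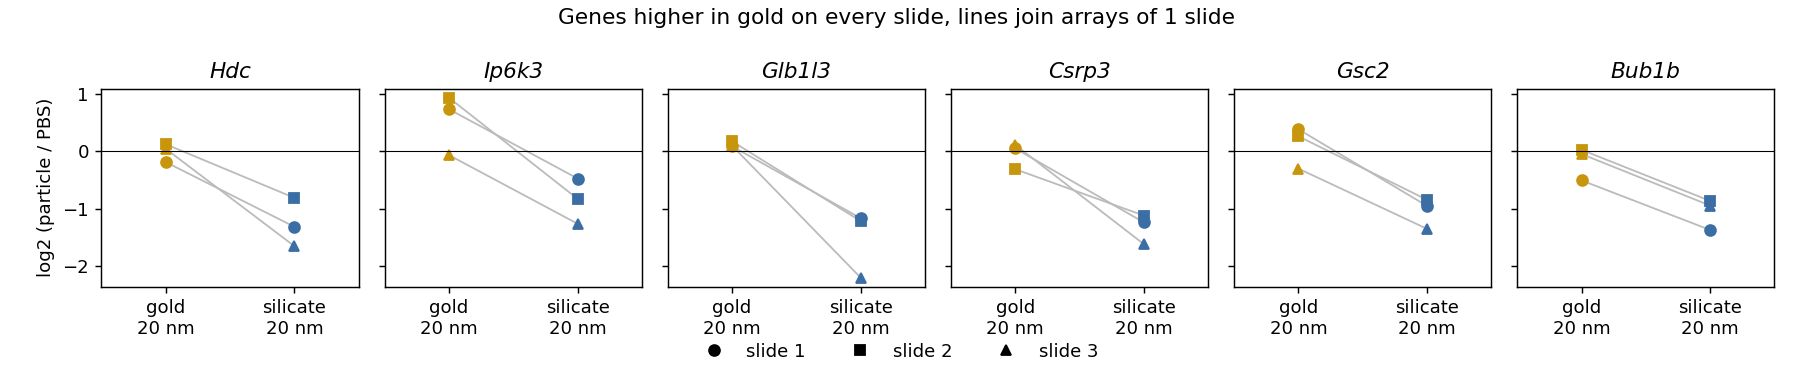
Log2 ratio of particle over PBS for 6 genes, gold 20 nm at the left and silicate 20 nm at the right of each panel, with symbols for slides and lines joining the arrays of 1 slide. Gold tubes lie between -0.51 and 0.94, and all silicate tubes lie below 0.

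Several genes with the highest differences on single slides showed the same arrangement. Glb1l3, named for its likeness to beta-galactosidase, had ratios of 0.09, 0.18 and 0.10 in gold tubes, against -1.17, -1.22 and -2.20 in silicate tubes. Csrp3, the muscle LIM protein, gave 0.05, -0.31 and 0.11 in gold tubes, against -1.24, -1.12 and -1.62 in silicate tubes. Gsc2, a homeobox gene, gave 0.39, 0.26 and -0.30 in gold tubes, against -0.95, -0.84 and -1.35 in silicate tubes. Kdm7a, a histone demethylase gene, did not: it was among the 5 highest of slide 1 at 1.13 but differed by -0.52 on slide 2 and -0.79 on slide 3. Ip6k3, Gsc2 and Glb1l3 were 3 of the 4 genes over 2-fold higher in gold on every slide, and the other has no gene symbol. Bub1b, a kinase of the spindle checkpoint, differed by 0.86, 0.89 and 0.90 (adjusted p = 0.202), and Ect2, needed for cytokinesis, by 0.25, 0.73 and 0.56. Of 11 proliferation genes tested, 3 were higher and 5 lower in gold on all slides, beside 15% and 17.2% of all genes. Ell3, an elongation factor gene, differed by 0.45, 0.86 and 0.43. The aryl hydrocarbon receptor Ahr differed by 0.35, 0.43 and 0.22 and its repressor Ahrr by 0.59, 0.67 and 0.88, with gold near PBS and silicate at -0.92, -0.72 and -0.98 for Ahrr. Ttll11, a tubulin-modifying enzyme, and Pdzph1 had their largest differences on slide 3, at 1.85 and 1.80.

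Beside the crystallins, 3 genes had the smallest p among those lower in gold. Dnaic2, an intermediate chain of the axonemal dynein, had log2 ratios of -0.42, -0.52 and -0.36 in gold tubes, against 0.38, 0.04 and 0.14 in silicate tubes. The groups did not overlap, and the mean difference was -0.62 (SE 0.09, adjusted p = 0.197). Tff1, a secreted peptide of mucous epithelia, gave 0.00, -0.04 and -0.13 in gold tubes, against 1.02, 1.58 and 1.80 in silicate tubes, though only 1 of the 3 gold tubes was well above background. Chac1, an enzyme that degrades glutathione, gave -1.50, -0.25 and -1.07 in gold tubes, against -0.43, 0.38 and 0.42 in silicate tubes.

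Immediate early genes, which neurons and glia transcribe within minutes of a stimulus, were lower in gold on most slides. Fos had log2 ratios of -1.80, 0.05 and 0.11 in gold tubes, against -1.01, 0.94 and 2.33 in silicate tubes, with a mean difference of -1.30 (SE 0.26, adjusted p = 0.267). Egr1 gave -2.25, -0.00 and 0.04 in gold tubes, against -1.39, 1.63 and 3.37 in silicate tubes, and Nr4a1 gave -1.01, -0.16 and -0.08 in gold tubes, against -0.64, 0.96 and 1.17 in silicate tubes. On slides 2 and 3 gold tubes were at the PBS level. Of 9 genes tested, 7 were lower in gold on all slides (17.2% of all genes) and 5 at an unadjusted p under 0.05 (4.73% of all genes). The list's medians were -0.14, -0.48 and -1.25.

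Genes that differed little included Vegfa, the main angiogenic growth factor of the retina. Its log2 ratios were 0.23, 0.25 and 0.27 in gold tubes, against 0.26, 0.46 and 0.49 in silicate tubes, a mean difference of -0.16 (SE 0.08, adjusted p = 0.555). Serpina6, the corticosteroid-binding globulin, stood far above PBS in both groups, at 2.54, 2.84 and 2.83 in gold tubes, against 2.48, 2.59 and 2.47 in silicate tubes. The PBS levels of Serpina6 lay between 6.02 and 6.35, close to the background of the array. Particle tubes always carried Cy5, so a dye effect and a higher level in particle tubes cannot be told apart for this gene. Optc, a proteoglycan gene of the ciliary body and vitreous, gave 2.97, 3.35 and 1.36 in gold tubes, against 2.95, 3.98 and 2.16 in silicate tubes. Its list of 6 vitreous and ocular secretory genes differed more, with medians of -0.07, -0.61 and -1.55. The 10 VEGF ligand and receptor genes tested had median differences of -0.19, -0.02 and -0.41, and the 12 clock genes, which drive daily rhythms, had -0.04, -0.09 and 0.12. Among 16 genes of hypoxia and glycolysis the medians were -0.00, -0.12 and -0.01, though single members ranged from -2.31 to 0.52 on slide 3. Hba-a1, an alpha globin gene with a near-identical copy, varied more between slides, at 0.46, -1.93 and -0.33.

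The same comparison at 100 nm uses other particle tubes on the same slides. The difference between the sizes passed the test for no gene: 0 of 23235 (0%) were called in either direction, the smallest adjusted p was 1 after rounding, and 502 genes (2.16%) had an unadjusted p under 0.05. Over all genes, the differences at 20 nm and 100 nm correlated at 0.05, -0.01 and 0.88 on slides 1, 2 and 3. Cryge differed by -3.65, -5.50 and -5.09 at 20 nm, and by -2.0, -4.53 and -6.37 at 100 nm. The lens list as a whole had medians of -0.25, -1.39 and -2.56 at 20 nm, and 0.22, 0.18 and -3.40 at 100 nm. Krt19 differed by -4.17, -2.55 and -2.39 at 20 nm, and by 0.19, 1.28 and -2.36 at 100 nm. For Hdc the values were 1.13, 0.93 and 1.70 at 20 nm, and 0.68, 0.45 and 0.95 at 100 nm. The epithelial list had medians of -2.53, -1.10 and -0.52 at 20 nm, and 0.08, -0.06 and -0.99 at 100 nm. The macrophage list had -0.70, 0.62 and -3.74 at 20 nm, and -0.47, 0.12 and -4.14 at 100 nm. With 3 slides, an untested or uncalled difference between sizes does not show that the sizes act alike.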

How the data were processed

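The deposited scanner files of the two-colour Agilent arrays hold intensity; their headers name Feature Extraction 11.0.1.1, the submitters' processing notes 9.3.2.1. Against the deposited log10 ratios, the deposited value table held log2 ratios of Cy5 over Cy3, with column medians of 0.016, 0.033 and 0.045 for gold 20 nm and of 0.087, 0.048 and 0.091 for silicate 20 nm. Its centring is unknown.

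Here, median signals were corrected with normexp (offset 50) and normalized by loess, control spots at weight 0; flagged outlier spots were left out. A probe needed a signal well above background, in Cy5 or Cy3, on the 3 arrays of some group (28460 of 39429 probes), and the brightest probe stood for its gene. Symbols and promoters are RefSeq's for GRCm38.p6, not the mm9 of the headers, and 6279 of 32334 RefSeq-type accessions stayed unmatched. Single-channel levels were further normalized with Aquantile.

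Genes were tested with limma 3.58.1 (R 4.3.3, data.table version 1.17.8), two-sided, over the 12 arrays with the slide as a block, and p-values were adjusted after Benjamini and Hochberg (0.05). The fit was tested on simulated data. Headers give the slide of each array, which pairs equal replicate numbers. Gold and silicate deviations from the group means correlated across genes at 0.925, 0.145 and 0.638 on slides 1, 2 and 3.

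Genes were named by rank: in each direction the 5 with the smallest p and the same sign on all slides, the 5 highest and 5 lowest of a slide, and list members with the largest mean difference, beside genes known from earlier results. Members and lists were chosen with earlier results of these data known, and Crygb for its family. A gene of the naming rule is not reported here.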

Additional observations from a re-analysis of the deposited data

How the results depend on the processing

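The comparison was repeated with 10 other settings of the fit, the normalization, the filter and the probe choice, and without each slide. The replicate number pairs the arrays of a slide. With no replicate block, 0 genes were called in the main comparison (smallest adjusted p 0.834) and 416 and 343 had an unadjusted p under 0.05 in the higher and lower direction, against 1126 and 1100 with the block. The fit of the 6 arrays alone, with the replicate block, gave 557 and 781. No setting changed the call of 0 genes in the main comparison, except that 3 genes passed without replicate 3, so the range over left-out slides was 0 to 3. They were Krt14 (mean of slides 1 and 2 -2.66), Mfap5 (-1.13) and Pi16 (-2.77), each lower in gold at an adjusted p of 0.0487 with limma; Mfap5 and Pi16 are named because of this call. The difference between sizes had 0 calls in every setting that includes both sizes. The counts over 2-fold on every slide, 4 higher and 24 lower, became 17 and 65 with processed signals and 15 and 72 with the series value table. Without 1 slide they were 4 to 8 higher and 64 to 195 lower, since fewer slides had to pass; the lower count was 64 without slide 1, 195 without slide 2 and 66 without slide 3. For 81 genes named here, no setting of the normalization, filter, probe choice or block reversed the mean difference; the strict filter had no value for 6 of them. Leaving out a slide did for 15 genes. Their mean differences without slide 1, 2 or 3 ranged from -1.53 to 0.068 for Tyrp1 and from -1.48 to 0.0074 for Dct, positive without slide 1. They ranged from -0.49 to 1.52 for Edn2, from -0.086 to 0.48 for P2ry12 and from -1.13 to 0.063 for Hba-a1, with the sign turned without slide 2. Without slide 3 the sign turned for Acta2 (-1.56 to 0.63), C2 (-1.32 to 0.67), Ccl5 (-3.12 to 0.25), C1qa (-2.32 to 0.23), Gfap (-2.37 to 0.0063), Crym (-1.65 to 0.080), Vim (-1.38 to 0.16), Mt1 (-1.18 to 0.043) and Mt2 (-1.91 to 0.014). For Kdm7a the sign turned without slide 2 and without slide 3 (-0.65 to 0.31). The median of the neutrophil list, -0.98, was -1.97 with processed signals, -2.06 with the value table and -0.36 when only probes well above background on all 6 arrays were used. The causes were not tested. Genes near background, such as Cd207, Tff1 and Myh1, are limited by their signal.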
